A study of Rattus norvegicus with 18 samples.

Results

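Cells of both genotypes were given fetal bovine serum (FBS) or starved of it (SSt), and each gene was asked whether its response to FBS differed between them. The difference was (WT FBS minus WT SSt) minus (KO FBS minus KO SSt) on the log2 scale, abbreviated below to WT minus KO, so that a negative value means a higher response in KO cells. Members were the genes that reached 1 FPKM (fragments per kilobase of transcript, scaled to library depth) in at least 3 of the 12 libraries of these 4 groups, which left 13167 of 32623 gene rows, in 12 of the 18 libraries of the series. The cells were mesenchymal stem cells (MSCs) from bone marrow of 2-month-old Sprague-Dawley rats at passage 3, all starved for 8 h before a treatment of 24 h by the labels, where the study's methods give a shorter treatment. KO FBS and KO SSt cells came from miR-337-/- rats, and WT FBS and WT SSt cells from wild-type rats, with 3 libraries in each group. The other 6 libraries were from cells under 10% cyclic mechanical stretch.

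Serum carries growth factors, lipids and hormones, and its return to starved cells is known to switch on immediate early genes, feed the phosphatidylinositol 3-kinase (PI3K)-Akt-mTOR pathway and let cells enter the division cycle. Sterol synthesis, matrix production and the inflammatory program governed by NF-kB, a transcription factor held in the cytoplasm by inhibitor proteins until a signal frees it, are further programs known to respond to such signals in stromal cells. miR-337 is a microRNA, a short RNA that pairs through its seed (bases 2 to 8) with messenger RNAs and lowers their output. The mature sequences of the deleted gene are shown to identify what the KO cells lack, with the seed in capitals. They were taken from RefSeq (GRCr8, chromosome 6, plus strand, chr6:134321170-134321190 for the 5p arm and chr6:134321201-134321223 for the 3p arm).
rno-miR-337-5p: cGGCGUCAugcaggaguugau
rno-miR-337-3p: uUCAGCUCcuauaugaugccuuu
The single Mir337 row of the gene tables held 0 counts in all 12 libraries, WT included, so the files gave no check of the deletion.

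Depth was 56083000 to 71847969 counts per library. KO FBS replicate 1 was unlike its 2 fellow libraries, with a chi-square per gene of 131 and 167 against them, where every other pair of replicates lay between 20.1 and 31. Results are therefore given with and without it for some of the lists and genes. The sources used here did not say whether replicates came from separate rats or cultures, so the spread behind the p-values may be technical. The labelled cell type was checked against its markers. Of 20 stromal markers 19 passed the filter, Col1a1 and Col3a1 having the highest levels, while Lepr, the leptin receptor that marks marrow MSCs, was nearly absent, at no more than 0.0263 FPKM in any library and 28 counts over the 12. The study reports nearly all of its cultured MSCs as positive for this receptor by flow cytometry. That measures protein and not RNA, and the gap between the measures was not tested. The stromal markers summed to 4185 to 5540 FPKM in KO FBS, 4726 to 4968 in KO SSt, 4143 to 4383 in WT FBS and 3043 to 3074 in WT SSt. In the same order Col1a1 averaged 1881, 1767, 1458 and 781 FPKM, and Col3a1 1294, 1009, 1520 and 376. Of the 19 tested stromal markers 4 rose and 3 fell with FBS in KO. In WT 4 rose and 4 fell, with a median log2 response of -0.44, so the sums follow these 2 collagens more than the list. Macrophage markers were also abundant, 28 of the 31 in the files passing the filter, with sums of 9954 to 11460 FPKM in KO FBS, 3913 to 4073 in KO SSt, 13830 to 14730 in WT FBS and 6432 to 6641 in WT SSt. In the same order of groups Gpnmb, the most abundant of them, averaged 3971, 830, 5872 and 1425 FPKM. Of the 28 tested macrophage markers 16 rose and 3 fell with FBS in KO, and 6 rose and 1 fell in WT. The macrophage sums are thus weighted to Gpnmb and do not describe every marker. The stromal and macrophage sums moved with the groups, and their part in the results below was not tested. In bulk samples, a change in the number of cells of a type and a change in RNA per cell cannot be told apart. Neutrophil and erythroid markers each summed to at most 9.01 FPKM. Osteoclast markers summed to 211 to 454 FPKM in KO FBS, 96.2 to 116 in KO SSt, 184 to 188 in WT FBS and 355 to 394 in WT SSt. Of these, Mmp9 alone averaged 191, 29.2, 71.7 and 308 FPKM in the same order of groups. With FBS 4 of the 7 tested osteoclast markers rose and 0 fell in KO, and 3 rose and 1 fell in WT. The order of the sums thus follows Mmp9 more than the list.

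**Figure D1:**
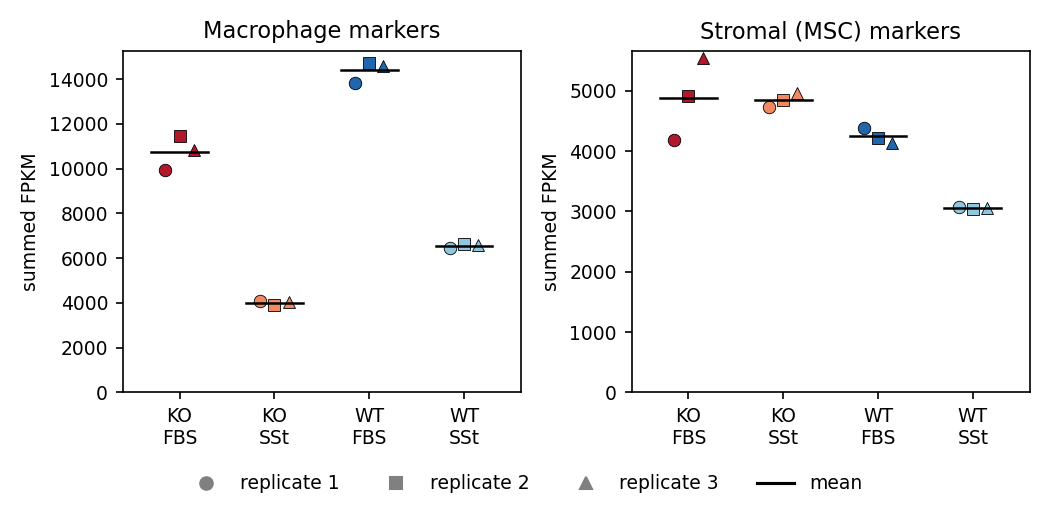
Summed FPKM of 31 macrophage markers (left) and 20 stromal markers (right) in each of the 12 libraries, by group, with lines at the group means. Macrophage sums were higher with FBS in both genotypes and higher in WT than in KO under both conditions. Of 28 tested macrophage markers 16 rose and 3 fell with FBS in KO, and 6 rose and 1 fell in WT. Stromal sums were lowest in WT SSt, at 3043 to 3074, as were Col1a1 and Col3a1, their most abundant members. Of 19 tested stromal markers 4 rose and 4 fell with FBS in WT.

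FBS changed both genotypes broadly. With adjusted p below 0.05 and at least a 2-fold change, 2335 of 13167 genes (17.7%) responded in KO cells, 1332 upward (10.1%) and 1003 downward (7.62%), and 2138 (16.2%) responded in WT cells, 1176 upward (8.93%) and 962 downward (7.31%). The response itself differed between genotypes for 1158 genes (8.79%) at the same thresholds, by edgeR's quasi-likelihood test of the interaction with Benjamini-Hochberg adjustment over all 13167 genes. Genes meeting both thresholds are termed called below, and this 8.79% is the share beside which the calls of each list stand. KO cells had the higher response for 700 of them (5.32%) and WT cells for 458 (3.48%). With adjusted p alone 4501 genes passed (34.2%), 2404 with the higher KO response (18.3%) and 2097 with the higher WT response (15.9%), and without KO FBS replicate 1 the count was 939, as 596 and 343. The division between directions moved with the processing. Genes with the higher KO and WT responses numbered 638 and 547 with upper-quartile scaling and 620 and 592 with library totals, and 605 and 617 with limma on log2(FPKM + 0.1), which changes the tool and the input as well. Beyond a 4-fold difference the numbers were 252 and 62.

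For most called genes the genotypes lay farther apart without serum than with it. The gap between KO and WT was larger under SSt than under FBS for 843 of the 1158 genes, and larger under FBS for 315. Among the 700 genes with the higher KO response, the median log2 fold change with FBS was 0.96 in KO and -0.86 in WT, and the median KO minus WT level was -1.21 under SSt and 0.58 under FBS. Among the 458 genes with the higher WT response, the medians were -0.87 in KO and 0.69 in WT, with KO minus WT at 0.87 under SSt and -0.52 under FBS. Calls in opposite directions within the 2 genotypes were found for 68 genes, of which 66 rose in KO and fell in WT. A further 397 genes were called within KO alone, 334 within WT alone, 196 within both in the same direction and 163 within neither. Without KO FBS replicate 1 the opposite calls numbered 48.

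**Figure D2:**
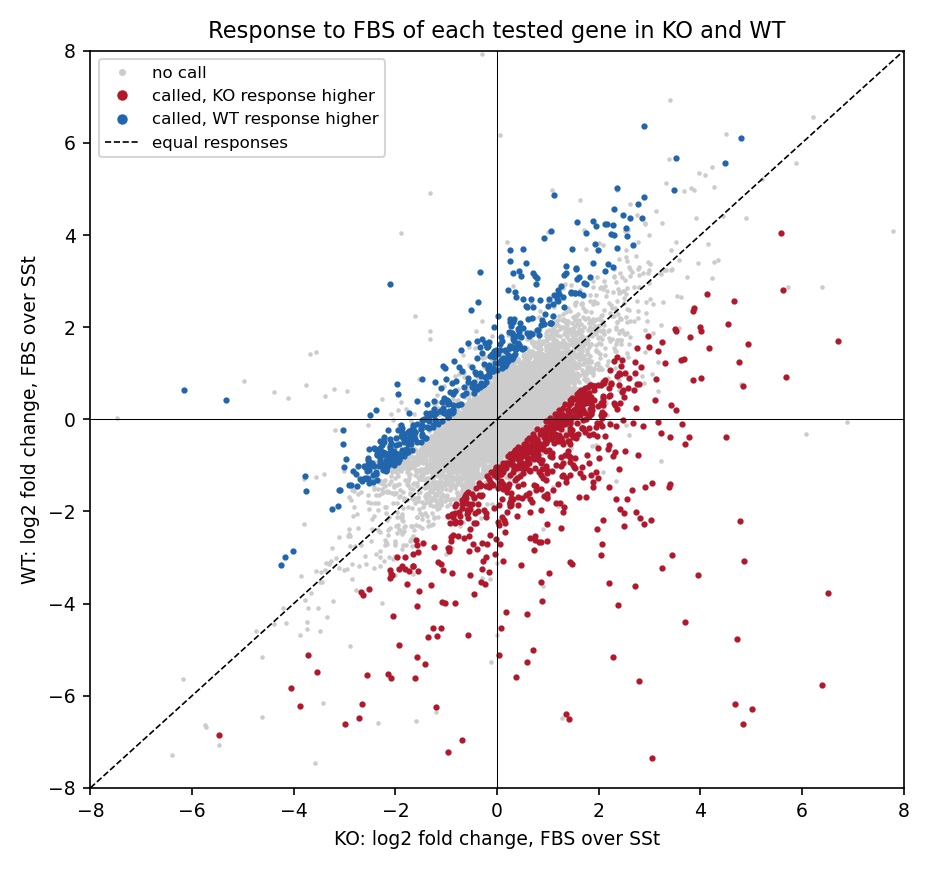
Log2 fold change with FBS over SSt in KO (horizontal axis) and in WT (vertical axis), one point per tested gene, coloured where the responses differed by the call. The dashed line marks equal responses, and 45 of 13167 genes lay outside the axes at 8. Red points, the 700 genes with the higher KO response, reached farther from the line than blue points, the 458 with the higher WT response.

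Inflammatory genes were among those with the largest differences. Nos2, the inducible nitric oxide synthase, had 239, 22.0 and 11.8 FPKM in KO FBS libraries, 4.68, 2.87 and 2.72 in KO SSt, 4.07, 4.26 and 4.96 in WT FBS and 401, 432 and 448 in WT SSt. WT SSt libraries stood above all others, and within KO the FBS libraries stood above the SSt libraries, KO FBS replicate 1 far above the rest. The log2 response was 4.84 in KO and -6.62 in WT, a difference of -11.46 ± 1.44 (WT minus KO, SE, adjusted p = 0.000265), and -8.99 without KO FBS replicate 1. Il1b, which encodes the inflammatory cytokine interleukin-1 beta, was likewise highest in WT SSt and then in KO FBS, with 329, 54.9 and 33.6 FPKM in KO FBS, 25.6, 20.2 and 19.3 in KO SSt, 19.2, 17.7 and 19.0 in WT FBS and 1003, 968 and 837 in WT SSt. Its difference was -8.47 ± 1.03 (adjusted p = 0.000225), and -6.78 without that library. Csf3, the granulocyte colony-stimulating factor, had 166, 42.5 and 31.6 FPKM in KO FBS, 45.5, 28.5 and 22.3 in KO SSt, 6.35, 5.53 and 5.44 in WT FBS and 522, 536 and 491 in WT SSt. Here KO FBS and KO SSt libraries overlapped, and the KO response of 1.42 was 0.27 without KO FBS replicate 1 (adjusted p = 0.336). The difference between genotypes, -7.93 ± 0.82 (adjusted p = 9.55e-05), came mainly from WT cells, in which Csf3 fell by 6.51 on the log2 scale. The macrophage marker sum, 13830 to 14730 FPKM in WT FBS and 6432 to 6641 in WT SSt, also moved between these groups, with 6 of 28 tested markers rising and 1 falling in WT, and its part was not tested.

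**Figure D3:**
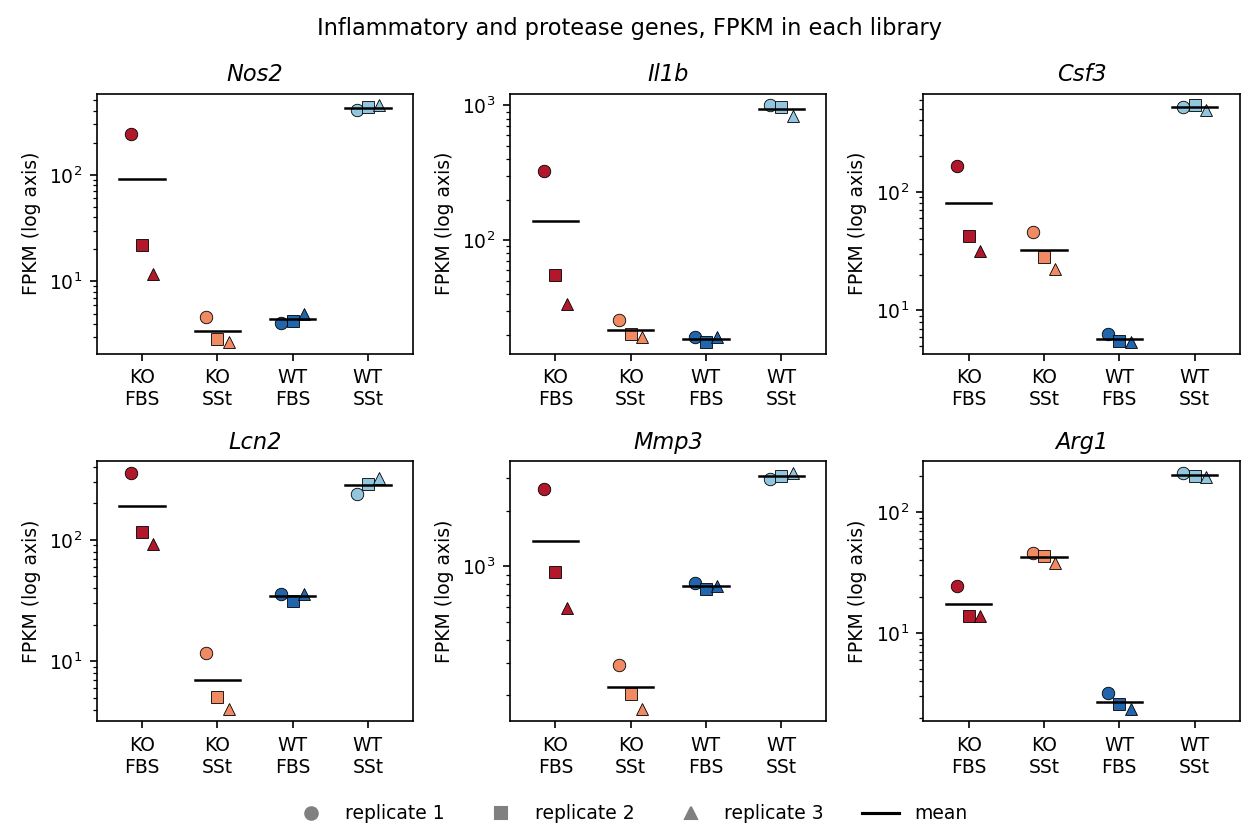
FPKM on a log axis of 6 inflammatory and protease genes in each library, by group, with lines at the group means. WT SSt libraries were the highest for 5 of the 6 genes, Lcn2 being highest in KO FBS replicate 1, and KO FBS replicate 1 (circle) was the highest of the KO FBS libraries for all 6.

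Cytokine genes as a list had 27 tested members, of which 14 were called with the higher KO response and 2 with the higher WT response, Il7 and Il34 (named after their values were seen). The list's median difference was -1.17, beside 0.01 over all tested genes. Within KO, 8 members rose and 4 fell with FBS, or 6 and 6 without KO FBS replicate 1, and in WT 6 rose and 14 fell. Csf2, the granulocyte-macrophage colony-stimulating factor, averaged 6.53 ± 5.78 FPKM in KO FBS, 1.41 ± 0.192 in KO SSt, 0.657 ± 0.287 in WT FBS and 23.9 ± 3.31 in WT SSt (SD, n = 3 each), a difference of -7.45 ± 0.82 (adjusted p = 0.000133). Il11, an interleukin-6 family cytokine known to act on bone cells, was highest in WT SSt, at 77.0, 84.0 and 82.9 FPKM, against 0.437 to 3.10 FPKM in the other 9 libraries. Without KO FBS replicate 1 the list held 11 and 2 calls. Spp1, osteopontin, the most abundant member, lay at 1759.5 ± 326 FPKM in KO FBS, 1637 ± 43.6 in KO SSt, 1619 ± 151 in WT FBS and 1562 ± 50.9 in WT SSt (SD, n = 3 each), with no call (difference -0.16, adjusted p = 0.438).

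Chemokines, the secreted proteins that attract leukocytes, differed for 17 of 20 tested members, 16 with the higher KO response and 1, Cxcl10 (named after its value was seen), with the higher WT response. The median difference was -2.01. With FBS, 14 members fell and 2 rose in WT, whereas 8 rose and none fell in KO, or 6 and none without KO FBS replicate 1. Cxcl2, a neutrophil attractant, had 196, 26.3 and 13.2 FPKM in KO FBS, 43.7, 30.5 and 24.5 in KO SSt, 9.19, 6.97 and 10.6 in WT FBS and 760.5, 782 and 659.8 in WT SSt. The KO groups overlapped and the KO response did not pass the test (1.36, adjusted p = 0.141). It was -0.67 without KO FBS replicate 1 (adjusted p = 0.0673). In WT cells Cxcl2 fell by 6.40 on the log2 scale. Ccl4, a macrophage inflammatory protein, did rise in KO, to 136, 44.6 and 32.2 FPKM in KO FBS, against 7.88, 7.18 and 8.71 in KO SSt, and fell in WT, to 30.1, 25.4 and 27.9 in WT FBS, against 227, 282 and 251 in WT SSt. Its difference was -6.47 ± 0.64 (adjusted p = 7.52e-05). Ccl2, the most abundant chemokine, was close in the starved cells, 2428 ± 102 FPKM in KO SSt and 2375 ± 86.3 in WT SSt (SD, n = 3 each), and with FBS was 1502 ± 479 in KO and 881 ± 38.5 in WT, short of a 2-fold difference (-0.86, adjusted p = 0.0212). Ccl3 and Ccl4, and Cxcl1, Cxcl2 and Cxcl3, are related members of gene families, and how reads shared between such genes were divided is not given in the sources used here.

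The NF-kB pathway and its feedback inhibitors showed the same direction. Of 23 tested genes, 14 were called, all with the higher KO response, and the median difference was -1.20; 14 rose in KO with FBS, or 9 without KO FBS replicate 1, and in WT 1 rose and 5 fell. Nfkbiz, a nuclear inhibitor-family protein that helps NF-kB activate secondary genes, had 25.2, 20.0 and 21.3 FPKM in KO FBS, 10.9, 9.58 and 8.30 in KO SSt, 17.3, 17.5 and 19.0 in WT FBS and 36.3, 35.7 and 30.03 in WT SSt. The 4 groups did not overlap, KO SSt being lowest and WT SSt highest, and the difference was -2.25 ± 0.17 (adjusted p = 1.86e-05). Zc3h12a, a ribonuclease that degrades cytokine messages, averaged 58.7 ± 13.4 FPKM in KO FBS, 29.3 ± 3.65 in KO SSt, 37.1 ± 1.61 in WT FBS and 78.9 ± 2.89 in WT SSt (SD, n = 3 each). The mitochondrial superoxide dismutase Sod2, a known NF-kB target and the most abundant member, differed by -1.83 ± 0.27 (adjusted p = 0.000657). Without KO FBS replicate 1 the list held 12 calls.

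Promoters of these genes were examined for an NF-kB-type motif, read as GGG, any 2 bases and then TTTCC or TTCCC, on either strand, in the 300 bases from 250 before to 50 after the start site in RefSeq (GRCr8). Promoters matched 20 of the 23 NF-kB list genes, and 9 of their 20 windows (45%) held the motif, beside 3.59% of all 33469 promoters, 4.55% of 44 mitosis windows and 6.82% of 44 DNA replication windows. Promoters matched 65.3% to 78.3% of the cytokine, chemokine and prostaglandin list genes and of the called genes, so their shares leave out many members. The motif was in 5 of 15 chemokine windows (33.3%) and 2 of 20 cytokine windows (10%). In the nitric oxide, arginine and prostaglandin list it was in 1 of 18 windows (5.56%), that of Pla2g2a. Among called genes it was in 6.51% of 507 windows with the higher KO response and 3.52% of 369 with the higher WT response. The share was 3.84% of 10050 windows of all tested genes. Among genes described below, the motif was also in the promoters of Cd55, with the higher KO response, and Acan, with the higher WT response. The NF-kB list was built from known NF-kB genes, so its share of 45% describes the list and not the response. Windows of 30 bases are shown for Nfkbiz and the chemokine Cxcl2, both described above, and for the phospholipase Pla2g2a described below, with the motif in capitals. They lie at chr11:58251698-58251727 (plus strand), chr14:17467310-17467339 (minus strand) and chr5:156359525-156359554 (plus strand), the motif beginning 13, 74 and 190 bases before the start site.
Nfkbiz: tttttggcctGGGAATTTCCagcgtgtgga
Cxcl2: cctaagctcaGGGGATTTCCctgatccctg
Pla2g2a: catggtatgaGGGCTTTTCCggccctcaag
A match describes the letters in this window only.

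Enzymes of nitric oxide, arginine and prostaglandin metabolism and acute-phase proteins, listed together, were called for 13 of 23 tested genes, all with the higher KO response, and the count was 13 without KO FBS replicate 1. The list's median difference was -2.29. Arg1, arginase, which competes with nitric oxide synthase for arginine, fell in both genotypes, to 24.3, 13.8 and 13.7 FPKM in KO FBS, against 46.1, 43.4 and 37.8 in KO SSt, and to 3.17, 2.58 and 2.34 in WT FBS, against 211, 197 and 194 in WT SSt. No groups overlapped, and the fall was deeper in WT (difference -5.04 ± 0.31, adjusted p = 7.67e-06). Ptges, which makes prostaglandin E2, had 269, 114 and 84.1 FPKM in KO FBS, 457, 358 and 322 in KO SSt, 32.0, 29.7 and 28.0 in WT FBS and 773, 751 and 774 in WT SSt, likewise falling farther in WT (-3.52 ± 0.50, adjusted p = 0.00048). Pla2g2a, a secreted phospholipase that releases fatty acids, moved otherwise: it stood at 652, 425 and 421 FPKM in KO FBS, 15.9, 8.14 and 6.68 in KO SSt, 139.9, 111 and 125 in WT FBS and 66.7, 66.2 and 61.4 in WT SSt. FBS raised it by 5.69 on the log2 scale in KO, and the fitted WT change was 0.92, short of 2-fold. Lcn2, lipocalin-2, an iron-scavenging acute-phase protein, rose in KO, to 357, 117 and 92.04 FPKM in KO FBS, against 11.8, 5.06 and 4.02 in KO SSt, and fell in WT, to 35.9, 31.4 and 36.1 in WT FBS, against 241, 289 and 324 in WT SSt. The largest fold of this kind concerned Wfdc21, a secreted small protein of the whey acidic protein family, with 265, 54 and 29 counts in KO FBS, 18, 8 and 0 in KO SSt, 0 in all 3 WT FBS libraries and 592, 813 and 963 in WT SSt. Against a floor of 3 counts over the group, it was at least 713-fold lower in WT FBS than in WT SSt.

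Secreted proteases and their regulators were called for 10 of 34 tested genes, 9 with the higher KO response. Mmp3, stromelysin, which cuts matrix and activates other proteases, reached 2608, 925 and 594 FPKM in KO FBS, 291, 202 and 167 in KO SSt, 815, 751 and 776 in WT FBS and 2979, 3106 and 3212 in WT SSt. KO FBS libraries covered a wide range that included the WT FBS values, while KO SSt lay below and WT SSt above everything else (-4.76 ± 0.64, adjusted p = 0.000369; -3.87 without KO FBS replicate 1). The gelatinase Mmp9 differed by -4.94 ± 0.61 (adjusted p = 0.000236). Plaur, the urokinase receptor, fell by 2.71 on the log2 scale in WT, and its KO change was -0.47, short of 2-fold. Serpinb2, an inhibitor of urokinase, had 79.7, 6.58 and 2.82 FPKM in KO FBS, 1.75, 0.966 and 1.04 in KO SSt, 1.39, 0.896 and 0.864 in WT FBS and 63.8, 83.1 and 77.7 in WT SSt, and KO FBS replicate 1 alone reached the WT SSt level. Its difference was -10.86, and -8.16 without that library.

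**Figure D4:**
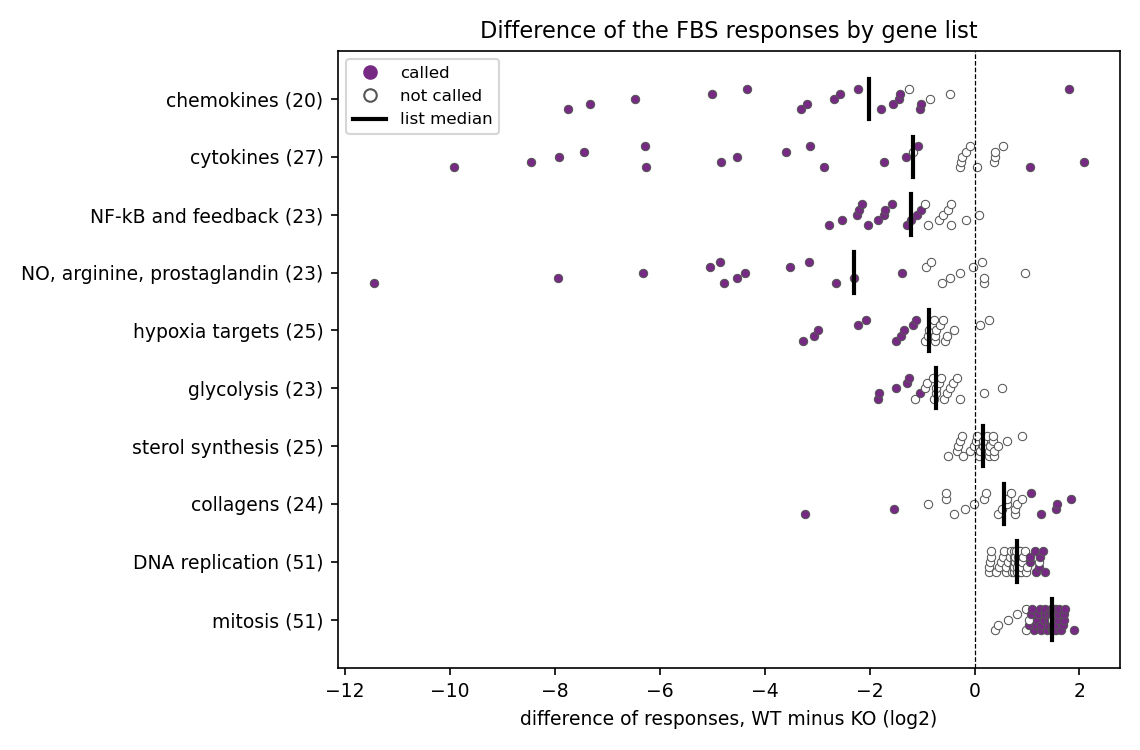
Difference of the FBS responses (log2, WT minus KO) for each tested member of 10 gene lists, filled where called, with black bars at list medians and list sizes in brackets. Medians ran from -2.29 for the nitric oxide, arginine and prostaglandin list to 1.47 for mitosis, and no sterol synthesis gene was called.

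Among genes of sugar use and oxygen response, every call gave the higher response to KO. Of 25 tested hypoxia targets, 10 were called, all with the higher KO response, with a median difference of -0.87, and 7 without KO FBS replicate 1. Of 23 glycolytic genes 6 were called in that direction, 4 without that library, with a median of -0.74. Within KO 4 hypoxia targets and 1 glycolytic gene fell with FBS, or 5 and 3 without that library, and within WT 15 and 9. Slc2a1, the main glucose transporter, had 209, 109 and 100.01 FPKM in KO FBS, 121, 111 and 104 in KO SSt, 87.8, 89.6 and 88.5 in WT FBS and 232, 238 and 237 in WT SSt. WT SSt stood above all others and the KO groups overlapped (-1.85 ± 0.32, adjusted p = 0.00163). Slc16a1, a lactate transporter, differed by -1.50 ± 0.14 (adjusted p = 5.43e-05), whereas the pyruvate kinase Pkm, the most abundant glycolytic gene, differed by -0.68 (adjusted p = 0.00328), under the 2-fold limit. Epas1, the hypoxia-inducible factor 2 alpha, rose in KO and fell in WT, with 5.67 ± 1.01 FPKM in KO FBS, 1.66 ± 0.324 in KO SSt, 3.91 ± 0.433 in WT FBS and 8.89 ± 1.31 in WT SSt (SD, n = 3 each). Ddit4, a hypoxia- and stress-induced inhibitor of mTOR, had 28.0, 22.0 and 19.2 FPKM in KO FBS, 23.4, 19.9 and 18.3 in KO SSt, 12.1, 12.4 and 11.9 in WT FBS and 42.8, 41.5 and 41.3 in WT SSt, a difference of -2.07 ± 0.19 (adjusted p = 4.97e-05).

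Of 21 tested targets of NRF2, the factor of the antioxidant response, 3 were called, all with the higher KO response. That is 14.3%, beside 8.79% of all tested genes. Fth1, ferritin heavy chain, was at 13469, 11136 and 9815 FPKM in KO FBS, 4029.9, 3683 and 3560.1 in KO SSt, 9597, 9361 and 9323 in WT FBS and 9423, 9109 and 9414 in WT SSt. It was low in KO SSt alone, so that FBS raised it by 1.69 on the log2 scale in KO, beside a fitted -0.02 in WT (difference -1.71 ± 0.14, adjusted p = 3.44e-05). Slc7a11, the cystine transporter, had 75.1, 46.0 and 35.9 FPKM in KO FBS, 6.89, 6.90 and 6.24 in KO SSt, 23.7, 20.1 and 24.3 in WT FBS and 50.3, 57.6 and 66.1 in WT SSt, rising in KO and falling in WT. The third was the heme oxygenase Hmox1 (-1.49, adjusted p = 0.000709). Targets of ATF4, the factor of the amino acid stress response, were called for 7 of 27, 6 with the higher KO response. Atf4 itself changed by 0.70 in KO and 0.56 in WT, both under 2-fold.

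Mitotic genes had the higher WT response. They were lower in libraries labelled FBS than in libraries labelled SSt, with a median log2 response of -2.27 in KO and -0.88 in WT. This fall runs against the known effect of serum on cell division given above. The labels FBS and SSt were taken as deposited and no independent check of them was made here, and if they were exchanged in both genotypes, every FBS response and difference would change sign. Of 51 tested genes 43 were called, all with the higher WT response, the median difference was 1.47, and the count was 34 without KO FBS replicate 1. Within KO 49 of 51 fell with FBS, and within WT 14. Cdk1, the kinase that drives entry into mitosis, had 7.43, 15.1 and 18.7 FPKM in KO FBS, 89.7, 88.9 and 92.6 in KO SSt, 20.5, 19.4 and 20.3 in WT FBS and 47.8, 48.8 and 48.8 in WT SSt. KO SSt stood highest and KO FBS lowest, with no overlap of groups, and the difference was 1.34 ± 0.32 (adjusted p = 0.00858). The Cdk1 difference was 1.05 without KO FBS replicate 1. Mki67, the proliferation marker Ki-67, had 5.06, 14.8 and 17.1 FPKM in KO FBS, 37.3, 44.2 and 44.7 in KO SSt, 21.2, 22.7 and 22.2 in WT FBS and 24.2, 25.3 and 26.1 in WT SSt. Its difference of 1.48 ± 0.44 (adjusted p = 0.025) lost the call without KO SSt replicate 3 or without WT SSt replicate 1. Pimreg, a mitotic regulator outside the list, differed by 2.50 ± 0.36 (adjusted p = 0.000555), with 2.22 ± 0.888 FPKM in KO FBS, 19.1 ± 2.10 in KO SSt, 3.90 ± 0.521 in WT FBS and 5.49 ± 0.914 in WT SSt (SD, n = 3 each). Aurka, the mitotic spindle kinase, varied little between replicates, with a difference of 1.14 ± 0.09 (adjusted p = 2.37e-05).

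DNA replication genes took the same direction with smaller differences. All 51 tested genes had a positive difference and 33 passed the adjusted p. Calls numbered 8 (15.7%, beside 8.79% of all tested genes), or 2 without KO FBS replicate 1. The median difference was 0.81, the median KO response -1.69 and the median WT response -0.90. Rrm2, a subunit of ribonucleotide reductase, which makes deoxynucleotides, had 17.7, 42.5 and 40.8 FPKM in KO FBS, 117, 123 and 125 in KO SSt, 49.0, 56.4 and 55.6 in WT FBS and 71.4, 69.2 and 73.3 in WT SSt (1.34 ± 0.33, adjusted p = 0.0103). Pcna, the sliding clamp of the polymerase and the most abundant member, differed by 0.68 (adjusted p = 0.00304), under the 2-fold limit. Among cell cycle inhibitors, the antiproliferative genes Btg1 and Btg2 had the higher KO response (-1.43 and -1.75), and Cdkn2c, an inhibitor of cyclin-dependent kinases, the higher WT response (1.30).

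Promoters of mitotic genes carry the cell cycle homology region TTTGAA and CCAAT boxes as known elements, and both were searched on either strand in the same 300-base windows. RefSeq promoters matched 43 of the 51 mitosis genes, and 31 of their 44 windows (70.5%) held TTTGAA, beside 18.3% of all promoters. For DNA replication genes, matched for 41 of 51, the share with TTTGAA was 9.09% of 44 windows. CCAAT was held by 68.2% of mitosis and 61.4% of replication windows, beside 37.5% of all promoters. The lists were built from known mitotic and replication genes, so these shares describe the lists and not the response. Among other genes described, TTTGAA was in the promoters of Mmp3 and Dusp1, with the higher KO response. It was also in those of Thbs4, with the higher WT response, and Mtor, without a call. Windows of Cdk1, Ccnf and Mki67 are shown with TTTGAA in capitals, as the mitotic genes described here whose promoters hold it. They lie at chr20:19265265-19265294 (plus strand), chr10:13783734-13783763 (minus strand) and chr1:199952675-199952704 (minus strand), the motif beginning 16, 82 and 99 bases before the start site.
Cdk1: taccgcggtgagTTTGAAactgctggcact
Ccnf: gctcccggcgcgTTTGAAaacggggcgggg
Mki67: ccgccgttttcgTTTGAAttgggcgggcac
Ccnf, cyclin F, differed by 1.10 ± 0.19 (adjusted p = 0.00177), and by 0.91 without KO FBS replicate 1, under the 2-fold limit.

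**Figure D5:**
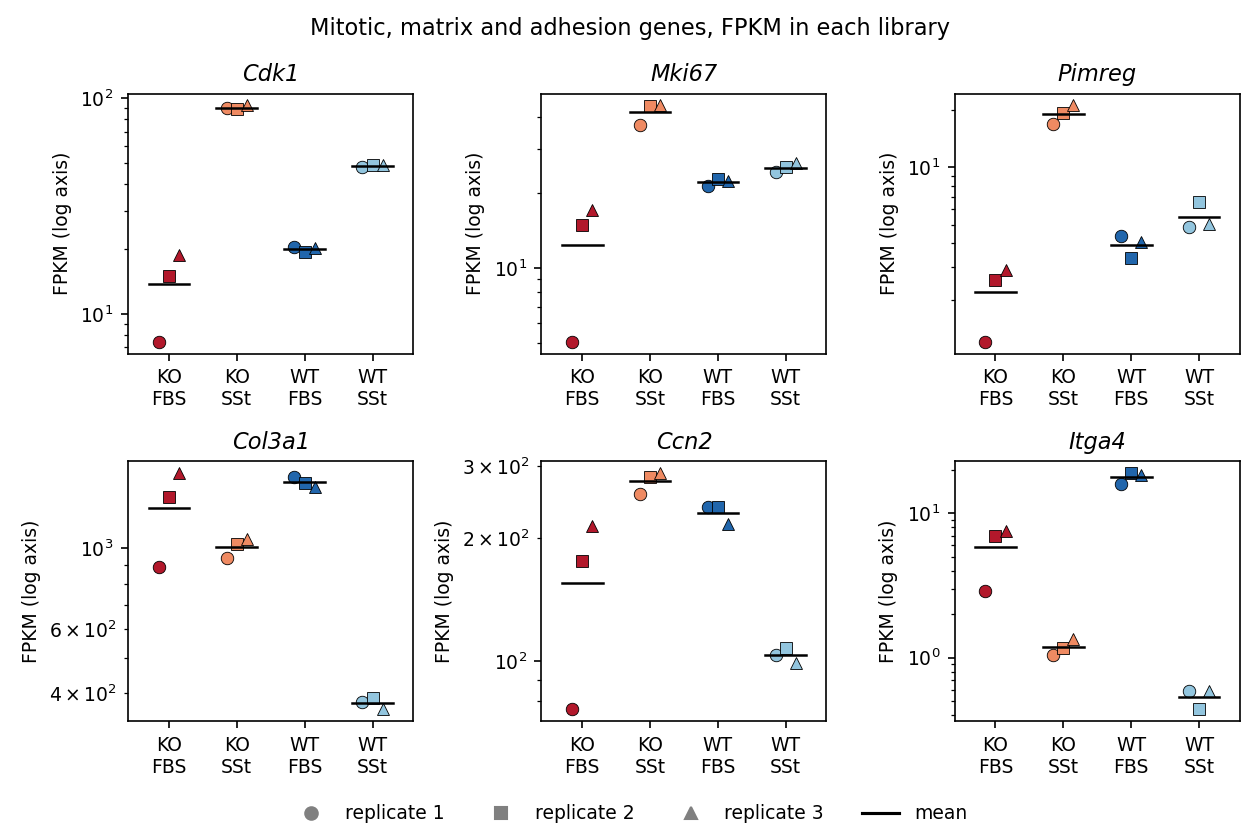
FPKM on a log axis of 3 mitotic genes (top) and of a collagen, a matricellular and an integrin gene (bottom) in each library, by group, with lines at the group means. The mitotic genes were highest in KO SSt and lowest in KO FBS, whereas Col3a1, Ccn2 and Itga4 were lowest in WT SSt, except Ccn2 in KO FBS replicate 1.

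Collagens had the higher WT response in most of their calls. With FBS 1 rose and 3 fell in KO, and 7 rose and 4 fell in WT. Of 24 tested collagen genes, 5 were called with the higher WT response and 2 with the higher KO response, Col7a1 and Col23a1 (named after their values were seen), with a median difference of 0.57. Col3a1, a fibrillar collagen of soft tissues and early bone matrix, had 888, 1381 and 1612 FPKM in KO FBS, 939.7, 1029 and 1059 in KO SSt, 1570.3, 1514 and 1476 in WT FBS and 378, 388 and 361 in WT SSt. WT SSt was the lowest group, and the KO groups overlapped (1.55 ± 0.22, adjusted p = 0.000471). Col6a1 and Col6a2, 2 chains of collagen VI, differed by 1.57 ± 0.20 and 1.27 ± 0.18. Col1a1, the main collagen of bone and the most abundant member, was at 1881 ± 408 FPKM in KO FBS, 1767 ± 69.7 in KO SSt, 1458 ± 72.7 in WT FBS and 781 ± 7.51 in WT SSt (SD, n = 3 each), a difference of 0.70 (adjusted p = 0.00693), under the 2-fold limit. Cartilage genes were called for 3 of 9, all with the higher WT response, among them Col2a1, the main cartilage collagen (1.84 ± 0.32), and Acan, aggrecan (1.58 ± 0.42, adjusted p = 0.0144).

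Other matrix and adhesion genes moved both ways. Of 51 matrix glycoprotein and proteoglycan genes, 8 were called with the higher WT response and 4 with the higher KO response. Thbs4, a thrombospondin of tendon and muscle matrix, was high in KO SSt alone, with 2.98, 3.14 and 3.85 FPKM in KO FBS, 12.3, 13.3 and 14.8 in KO SSt, 3.31, 3.64 and 3.35 in WT FBS and 2.42, 2.05 and 2.38 in WT SSt (2.50 ± 0.15, adjusted p = 7.38e-06). Fbln5, fibulin-5, which organises elastic fibres, instead differed under FBS, at 33.8, 36.6 and 41.8 FPKM in KO FBS, 19.5, 18.8 and 19.5 in KO SSt, 81.3, 83.6 and 78.2 in WT FBS and 18.9, 18.1 and 18.6 in WT SSt. Fn1, fibronectin, differed by 0.91 ± 0.10 (adjusted p = 0.00012), just under the 2-fold limit, which it passed in 5 of the alternatives. The matricellular genes Ccn2 (connective tissue growth factor) and Ccn5 differed by 1.88 ± 0.37 and 2.12 ± 0.36. Ccn5 had 13.1, 24.5 and 33.2 FPKM in KO FBS, 4.51, 5.71 and 6.80 in KO SSt, 98.9, 101 and 96.0 in WT FBS and 5.34, 4.76 and 5.14 in WT SSt, so that the genotypes overlapped under SSt and the rise was larger in WT.

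Integrins, the receptors that bind matrix, were called for 7 of 16 tested genes, 3 with the higher WT and 4 with the higher KO response. Itga4, a receptor subunit for fibronectin and vascular cell adhesion molecule 1, had 2.91, 6.98 and 7.57 FPKM in KO FBS, 1.03, 1.16 and 1.35 in KO SSt, 16.0, 19.0 and 18.3 in WT FBS and 0.585, 0.438 and 0.583 in WT SSt. It rose in both genotypes with no overlap, and farther in WT (2.65 ± 0.40, adjusted p = 0.000782). Itga8, which pairs with the beta 1 chain, fell in both, to 0.533, 0.938 and 1.02 FPKM in KO FBS, against 14.0, 12.3 and 12.4 in KO SSt, and to 0.465, 0.461 and 0.626 in WT FBS, against 40.1, 36.3 and 37.7 in WT SSt (-2.35 ± 0.26, adjusted p = 0.000142). Itga7, a laminin receptor subunit, had the higher KO response (-2.39 ± 0.17). The common beta 1 chain Itgb1, the most abundant integrin, changed by -0.81 in KO and by -0.71 in WT, both under 2-fold, with a difference of 0.11 (adjusted p = 0.0952).

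Growth factor ligands were called for 19 of 39 tested genes, 13 with the higher KO response and 6 with the higher WT response. Nrg1, neuregulin 1, a ligand of ErbB receptors, was 15.3, 10.7 and 8.76 FPKM in KO FBS, 28.6, 24.1 and 22.0 in KO SSt, 2.42, 1.77 and 1.99 in WT FBS and 33.8, 32.3 and 29.8 in WT SSt, a gap mostly under FBS (-2.97 ± 0.28, adjusted p = 5.95e-05). Bmp6, a bone morphogenetic protein, rose to 8.53, 9.10 and 8.74 FPKM in KO FBS, against 1.73, 1.60 and 1.71 in KO SSt, and was 4.73, 4.02 and 4.06 in WT FBS, against 2.41, 2.52 and 3.42 in WT SSt (-1.88 ± 0.19). Fgf7, a fibroblast growth factor and the most abundant ligand listed, differed by -0.92 (adjusted p = 0.00151), under the limit. Receptors were called for 6 of 33 (18.2%, beside 8.79% of all tested genes), with 3 in each direction. Met, the hepatocyte growth factor receptor, was high in WT SSt, at 16.3, 15.6 and 15.6 FPKM, against 2.28 to 8.65 in the other 9 libraries (-3.52 ± 0.48, adjusted p = 0.000423). S1pr3, a receptor for sphingosine 1-phosphate, a lipid of serum, was highest in KO SSt, with 2.17, 3.25 and 3.63 FPKM in KO FBS, 21.3, 20.8 and 23.1 in KO SSt, 3.33, 2.86 and 3.15 in WT FBS and 7.02, 6.78 and 6.93 in WT SSt (1.59 ± 0.20, adjusted p = 0.000237). The binding proteins of insulin-like growth factors were called for 4 of 5 tested genes. Igfbp5 had the higher KO response (-3.25 ± 0.47, adjusted p = 0.00058) and Igfbp6 the higher WT response (1.51 ± 0.21, adjusted p = 0.000395).

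The core genes of insulin-PI3K-Akt-mTOR signalling were called in a share near the background, and those of the wider annotated pathway in a larger share. Of 45 core genes, 4 were called (8.89%, beside 8.79% of all tested genes), 3 with the higher KO response, and the median difference was -0.05, a sign that turned positive when library totals or the upper quartile set the scale. Of 246 tested genes in the PI3K-Akt pathway as the files annotate it from KEGG, 46 were called (18.7%), 28 with the higher KO and 18 with the higher WT response, with a median of -0.04. Pik3r5, the regulatory subunit of the PI3K gamma complex of leukocytes, led the core list, at 36.7, 18.1 and 16.7 FPKM in KO FBS, 3.57, 3.34 and 3.44 in KO SSt, 14.3, 13.5 and 13.6 in WT FBS and 14.95, 15.4 and 14.2 in WT SSt (-3.02 ± 0.35, adjusted p = 0.000173), and Pik3cb, the beta catalytic subunit, differed by -1.62 ± 0.28. Irs1, the insulin receptor substrate that links the receptor to PI3K, had 1.69, 1.65 and 2.11 FPKM in KO FBS, 2.17, 2.92 and 2.77 in KO SSt, 2.27, 2.19 and 2.27 in WT FBS and 2.84, 2.89 and 2.84 in WT SSt. Its FBS libraries lay below its SSt libraries in both genotypes, and the difference was 0.07 ± 0.17 (adjusted p = 0.79). The kinases Akt1 and Mtor differed by 0.10 ± 0.04 and 0.03 ± 0.08 (adjusted p = 0.0859 and 0.767). Neither the mechanosensitive channel Piezo1 (-0.28 ± 0.15) nor the mechanosensitive coactivator Yap1 (-0.03 ± 0.11) and its partner Tead1 (-0.16 ± 0.09) was called.

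Lineage genes gave scattered calls. Osteoblast genes were called for 5 of 17, with Dlx3, a homeobox factor of osteogenesis, higher in response in WT (1.31 ± 0.21) and Tnfrsf11b, the osteoclast-restraining decoy osteoprotegerin, higher in KO (-1.45 ± 0.21). Runx2, the master factor of osteoblasts, differed by 0.20 ± 0.18 (adjusted p = 0.447), and Alpl, alkaline phosphatase, by 0.77 ± 0.34 (adjusted p = 0.109), without a call. Among 16 adipocyte genes 3 were called (18.8%, beside 8.79% of all tested genes). They included Lpl, lipoprotein lipase, with 14.2, 61.7 and 62.5 FPKM in KO FBS, 6.48, 7.43 and 7.31 in KO SSt, 118, 123 and 119.8 in WT FBS and 3.95, 4.35 and 5.61 in WT SSt. It rose in both genotypes, and the difference of 1.89 ± 0.57 (adjusted p = 0.0257) lost the call without WT SSt replicate 1 or 2. Of the contractile genes 3 of 13 were called, all with the higher WT response, and Acta2, smooth muscle actin, was 17.9 ± 4.15 FPKM in KO FBS, 59.7 ± 10.2 in KO SSt, 11.3 ± 2.27 in WT FBS and 11.9 ± 1.57 in WT SSt (SD, n = 3 each). Most contractile genes fell with FBS in both genotypes, 12 of 13 in KO and 10 in WT. The list's median difference was 0.395, and 0.00477 without KO FBS replicate 1, with 3 calls in either fit. Wnt16, a secreted Wnt known in bone for protecting cortical mass, was nearly silent in WT SSt, at 0.137, 0.124 and 0.102 FPKM, against 1.30 to 3.37 in the other 9 libraries (3.19 ± 0.38, adjusted p = 0.000206).

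Sterol synthesis genes rose in both genotypes, taking the FBS and SSt labels as given. Whether a rise is the direction that serum gives in these cells was not tested. With the labels exchanged it would be a fall, as for the other responses. Of 25 tested genes, 20 rose in KO and 21 in WT, the median responses were 1.61 and 1.70, and none was called for a difference, while 9 passed the adjusted p alone, 6 with the higher WT and 3 with the higher KO response. Msmo1, a sterol demethylation enzyme, averaged 161 ± 15.5 FPKM in KO FBS, 60.5 ± 3.41 in KO SSt, 181 ± 8.22 in WT FBS and 53.1 ± 0.502 in WT SSt (SD, n = 3 each), with a difference of 0.24 ± 0.09 (adjusted p = 0.0484). None of 21 fatty acid synthesis genes was called, and 8 passed the adjusted p alone. Immediate early genes were called for 9 of 38, 8 with the higher KO response. Dusp1, a phosphatase that switches off MAP kinases, fell in WT by 2.21 on the log2 scale, with a KO change of -0.84 that did not reach 2-fold, and Egr2, a zinc finger factor, rose by 2.19 in KO and 3.36 in WT (1.17 ± 0.14, adjusted p = 0.000183).

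Macrophage markers were called for 10 of 28 tested genes, 8 with the higher KO and 2 with the higher WT response, or 5 and 2 without KO FBS replicate 1, and the list's median difference was -0.47. Gpnmb, the most abundant marker, rose in both genotypes, with a difference of -0.33 ± 0.08 (adjusted p = 0.0119), under the limit. Fcgr2b, an inhibitory receptor for antibodies, had 452, 339 and 279 FPKM in KO FBS, 78.1, 72.3 and 70.3 in KO SSt, 186, 162 and 182 in WT FBS and 150.2, 150.2 and 142 in WT SSt (-2.13 ± 0.21, adjusted p = 6.66e-05). Cd14, the co-receptor for bacterial lipopolysaccharide, was 327, 215 and 195 FPKM in KO FBS, 179, 149.97 and 145 in KO SSt, 219, 201 and 218 in WT FBS and 560.3, 555 and 559 in WT SSt. Markers of the same list thus followed different orders of the 4 groups, Gpnmb being higher with FBS in both genotypes and Cd14 highest in WT SSt.

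Several of the genes with the smallest adjusted p have not yet been described. Ackr4, a scavenger receptor for chemokines, had 13.0, 12.9 and 13.3 FPKM in KO FBS, 17.4, 15.2 and 15.3 in KO SSt, 10.4, 11.0 and 10.5 in WT FBS and 47.3, 45.3 and 43.3 in WT SSt, a difference of -1.91 ± 0.08 (adjusted p = 2.18e-06), and it was high in WT SSt. Glrx, glutaredoxin, which reduces oxidised protein thiols, followed it closely, at 72.1, 61.4 and 58.7 FPKM in KO FBS, 54.8, 50.5 and 48.2 in KO SSt, 59.2, 60.8 and 61.3 in WT FBS and 221, 215 and 211 in WT SSt (-2.27 ± 0.11). Smpdl3a, a phosphodiesterase of the acid sphingomyelinase family, was low in KO SSt alone, with 402, 388 and 369 FPKM in KO FBS, 124, 119 and 119 in KO SSt, 428, 446 and 441 in WT FBS and 294, 294 and 295 in WT SSt (-1.21 ± 0.06). Steap3, an iron reductase, rose in WT FBS alone, at 20.0, 19.5 and 21.2 FPKM in KO FBS, 22.4, 24.3 and 24.5 in KO SSt, 40.1, 39.8 and 38.3 in WT FBS and 17.7, 16.8 and 16.6 in WT SSt (1.33 ± 0.07). Cd55, which protects cells from complement, lay higher in KO than in WT under FBS and lower under SSt, at 51.0, 40.1 and 37.7 FPKM in KO FBS, 89.8, 80.1 and 81.0 in KO SSt, 15.5, 15.04 and 15.1 in WT FBS and 148, 152 and 149 in WT SSt (-2.45 ± 0.15). Without KO FBS replicate 1 these differences were -1.90, -2.16, -1.17, 1.33 and -2.29.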

How the data were processed

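RNA sequencing of rat bone marrow MSCs was deposited as 2 tables, one for each genotype, joined here by gene identifier. The deposited counts are whole-number read counts per gene, not normalized, and the deposited FPKM values were made by the authors. Per the labels, Bowtie 0.12.2 and a mouse build, mm10, appear in the submitters' processing notes, with no role stated, while the identifiers are rat Ensembl genes, so no coordinates were taken from the files, and the counting tool is not given in the sources used here. The files also hold gene annotation, including KEGG pathways. The 2 tables came from separate genotypes, so a technical difference between tables and a genotype difference in level cannot be told apart. A constant difference between tables cancels in the difference of responses. One that itself differed between FBS and SSt would not cancel, and could not be told apart from a genotype difference in response.

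Genes with FPKM of at least 1 in 3 of 12 libraries were fitted with edgeR 4.0.16 (TMM scaling, quasi-likelihood, 4 groups, no block) in R 4.3.3, with Benjamini-Hochberg adjustment over 13167 genes. Genes were called where adjusted p was below 0.05 with at least a 2-fold change. Alternatives used DESeq2 1.42.0, limma 3.58.1 on log2(FPKM + pseudocount) (pseudocounts 0.1, 1 or 5), changed scaling or filters, a replicate block, and fits lacking each library in turn. Depth of 56083000 to 71847969 counts per library limits precision for genes of few counts, and FPKM values listed at 1e-04 were taken as 0. The scripts were tested on simulated data. Rows sharing a symbol with another row (6234 rows) were kept under their identifiers. Genes named by rule were the 12 largest positive and negative differences among calls kept in all 12 fits with a library left out and mean FPKM of at least 5, the 10 smallest adjusted p, the most abundant member and up to 3 called members of each list, and genes the study names. These were 153 genes, described in part, and others are said to be named after their values were seen. A value of 0 in a group was bounded by a floor of 3 counts over the group. Members and lists were chosen with earlier results of these data known. Promoter and miRNA sequences are from RefSeq (GRCr8), with promoters matched by symbol or Ensembl identifier for 86 of the 120 genes looked up.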

Additional observations from a re-analysis of the deposited data

Results flagged for a closer look

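The FBS response differed between WT and KO, by the interaction test, for 1158 genes. Among the genes looked up with values above 0 in every group, the following were called upward in KO and downward in WT. The differences (log2, WT minus KO) were -11.46 for Nos2, -10.86 for Serpinb2, -8.47 for Il1b, -8.11 for Tnfrsf14 (a receptor of the tumor necrosis factor receptor family), -7.93 for Lcn2, -7.93 for Csf3 and -7.45 for Csf2. They were -6.47 for Ccl4, -4.94 for Mmp9, -4.76 for Mmp3, -4.44 for Slc7a11, -3.25 for Igfbp5, -3.07 for Epas1, -2.64 for Igfbp3 and -2.21 for Zc3h12a. Igfbp3, a binding protein of insulin-like growth factors, had 57.7, 18.6 and 12.4 FPKM in KO FBS, 12.6, 12.6 and 11.8 in KO SSt, 10.3, 10.6 and 10.9 in WT FBS and 24.8, 28.2 and 22.8 in WT SSt, and its difference was -1.67 without KO FBS replicate 1. Without that library the KO response was 0.27 for Csf3 (adjusted p = 0.336), 0.39 for Igfbp3 and 0.87 for Zc3h12a. These are under 2-fold, so the upward KO call of these genes rests on that library. For the others listed it ranged from 1.09 for Il1b to 3.97 for Lcn2, and was 2.37 for Nos2 (adjusted p = 1.19e-05).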

How the results depend on the processing

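The count of 1158 lay between 784 and 1295 under the other scalings, tools and filters, except where the threshold or pseudocount changed. It was 4501 with adjusted p alone, 314 with a fold of at least 4 and 404 (126 WT higher, 278 KO higher) with limma on log2(FPKM + 5), where a pseudocount of 5 shrinks the folds of low genes. With that pseudocount 765 genes were called within KO and 674 within WT, and a filter of FPKM of at least 5 gave 1329 within WT, with fewer genes tested. Leaving out each library gave 939 to 1377 genes for the difference, 2285 to 2354 within KO and 2095 to 2156 within WT. The lowest count of the difference was without KO FBS replicate 1 and the highest, 1377, without KO FBS replicate 3. The median difference over all genes was 0.01 with TMM and 0.12 with library totals, and the medians of the PI3K core, receptor, adipocyte and Wnt-BMP lists changed sign under some scaling. With the replicate number as a block 1147 genes were called for the difference, 2304 within KO and 2127 within WT. Deviations of same-numbered libraries correlated at 0.141, -0.087 and 0.063 in KO and at 0.011, -0.056 and -0.015 in WT. With 3 libraries in each group, these values cannot show whether same-numbered libraries came from the same rat or culture. Scaling within each table, chosen after seeing the data, gave 1163.

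Of 97 called genes looked up, 70 kept the call and direction under every alternative that gave an adjusted p, 27 lost it under at least one, and none reversed. DESeq2 gave no adjusted p for Nos2, Il1b, Cxcl2 and Tnfrsf14. Of 23 genes without a call, 2 changed sign. The difference of Yap1 was 0.054 with upper-quartile scaling, 0.080 with library totals and 0.084, 0.084 and 0.080 with limma at pseudocounts of 0.1, 1 and 5, and with a library left out ranged from -0.103 to 0.066. Irs1 ranged from -0.011 to 0.184 with a library left out. The difference for Il10, an anti-inflammatory cytokine named after its value was seen, with at most 1.11 FPKM in 9 of 12 libraries, was -9.92 (adjusted p = 0.00348) and -2.82 (adjusted p = 0.942) without KO FBS replicate 1.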

Other observations

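The libraries from stretched cells (CMS), which the comparisons above do not use, were also read for some of the genes described. Nos2 had 40.4, 109 and 129 FPKM in KO CMS, against 4.36, 2.58 and 2.06 in WT CMS, and Il1b 44.1, 119 and 163 in KO CMS, against 15.9, 8.57 and 7.97 in WT CMS. Csf3 had 37.9, 82.0 and 92.9 FPKM in KO CMS, against 4.24, 3.09 and 2.04 in WT CMS. Arg1 had 12.3, 14.6 and 19.9 FPKM in KO CMS, against 2.63, 1.86 and 2.05 in WT CMS. The KO CMS libraries were above the WT CMS libraries for all of these genes, without overlap. Cdk1 and Mki67 lay the other way, with 6.98, 4.84 and 4.53 FPKM of Cdk1 in KO CMS, against 19.5, 20.7 and 21.8 in WT CMS, and 5.14, 3.84 and 3.48 FPKM of Mki67 in KO CMS, against 23.3, 21.4 and 22.4 in WT CMS. Col3a1 overlapped, at 1363, 1039 and 967 FPKM in KO CMS, against 1362, 1409 and 1432 in WT CMS. No test was made of these levels.

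Of 24 tested interferon-stimulated genes, 16 rose with FBS in KO and none fell, and 15 rose and 1 fell in WT, and 5 were called for a difference, all with the higher KO response, or 4 without KO FBS replicate 1. Oasl, an interferon-induced antiviral protein, had 9.75, 5.63 and 4.18 FPKM in KO FBS, 0.539, 0.393 and 0.575 in KO SSt, 5.16, 6.27 and 6.26 in WT FBS and 6.08, 7.50 and 9.14 in WT SSt. It was low in KO SSt alone (-4.17 ± 0.42, adjusted p = 7.93e-05). Ifi27, a mitochondrial interferon-induced protein, had 197, 172 and 182 FPKM in KO FBS, 76.9, 72.5 and 74.5 in KO SSt, 135, 125 and 125 in WT FBS and 126, 124 and 131 in WT SSt (-1.40 ± 0.09, adjusted p = 7.67e-06). The water channel Aqp1 had the higher WT response (2.10 ± 0.18, adjusted p = 3.41e-05), with 80.3, 95.2 and 109 FPKM in KO FBS, 108, 134 and 153 in KO SSt, 159, 161 and 156 in WT FBS and 49.1, 50.6 and 43.1 in WT SSt.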
